A study of Homo sapiens with 8 samples.

Results

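Protein arginine methyltransferases (PRMTs) are the enzymes that methylate arginine side chains, and their transcripts were followed in HEK293T cells given the adenosine analog DZNep. The members were chosen by name and are PRMT1, PRMT2, PRMT3, CARM1, PRMT5, PRMT6, PRMT7, PRMT8, PRMT9 and WDR77, which is the obligate partner of PRMT5, and make up 10 of the 57500 genes in the count table. All 10 were found by matching Ensembl identifiers to GENCODE symbols. A total of 9 had enough reads to be tested, and PRMT8 did not.

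RNA-seq was carried out on 8 libraries of HEK293T, an established line of human embryonic kidney origin with SV40 large T antigen. A single dose and time were measured. The 4 DZNep libraries came from cells exposed to 100 µM of the compound for 48 h, and the 4 Control libraries came from cells given vehicle over the same period. No other genotype or agent separates the groups, and both carry the same line's background. The labels name DMEM as the medium and the study's methods name RPMI, and the study describes its repeats as biological.

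PRMTs move a methyl group from S-adenosylmethionine onto arginine and release S-adenosylhomocysteine, which inhibits methyltransferases until it is hydrolysed. DZNep blocks the hydrolase that clears it. Type I enzymes make asymmetric dimethylarginine, type II enzymes make symmetric dimethylarginine, and type III enzymes stop at monomethylarginine. Their best known substrates are RNA-binding proteins rich in arginine and glycine, the Sm proteins of the spliceosome, and histone tails.

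Library totals ran from 25043058 to 44902779 counts. Mitochondrial transcripts took 3.02 to 13.7% of the counts in Control and 4.25 to 10.1% in DZNep, so these ranges overlapped. All 7 genes chosen as markers of HEK293T were present, and their summed level was 30278 to 52347 normalized counts in Control and 38091 to 48829 in DZNep. The 12 markers of other cell types summed to 2648 to 5064 in Control and 2746 to 5381 in DZNep. The fibroblast markers, COL1A1 above all, made up most of that sum, and the erythroid marker HBB was at 0 in every library. Among the HEK293T markers, edgeR called 2 keratins higher, of which KRT8 rose by 2.44 on the log2 scale, and called INA and PAX2 lower by 0.64 and 0.54, at an adjusted p under 0.05. Of the 12 other markers 7 were testable and 1 was called, VWF of endothelium, which went from 2 to 3 reads in Control to 65 to 135 in DZNep. CD3E of T cells had 0 reads in every Control library and 9 to 36 in DZNep. The part of these shifts in the results was not tested.

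DNA just upstream of 3 members is printed because PRMT3 and PRMT9 had the lowest fold changes of the family and PRMT5 had the highest. The sequences come from RefSeq on GRCh38.p14 and stop at the base before the annotated start, 5′ to 3′ on the strand of the gene. That of PRMT3 is chr11:20387466-20387557, plus strand, 92 bases with 79.3% G and C. That of PRMT9 is chr4:147684164-147684413, minus strand, 250 bases with 64.8% G and C. That of PRMT5 is chr14:22929409-22929626, minus strand, 218 bases with 55.5% G and C, and its first 20 bases as printed overlap the divergent transcript PRMT5-DT. Capitals mark CACGTG in PRMT3 and ATTGG, which is CCAAT on the opposite strand, in PRMT5.
PRMT3: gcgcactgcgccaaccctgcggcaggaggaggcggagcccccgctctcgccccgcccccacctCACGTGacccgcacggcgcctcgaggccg
PRMT9: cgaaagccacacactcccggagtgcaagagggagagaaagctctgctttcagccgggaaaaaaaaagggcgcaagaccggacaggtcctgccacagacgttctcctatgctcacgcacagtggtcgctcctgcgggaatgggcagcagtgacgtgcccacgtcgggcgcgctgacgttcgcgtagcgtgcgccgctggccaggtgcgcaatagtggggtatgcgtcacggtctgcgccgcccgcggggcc
PRMT5: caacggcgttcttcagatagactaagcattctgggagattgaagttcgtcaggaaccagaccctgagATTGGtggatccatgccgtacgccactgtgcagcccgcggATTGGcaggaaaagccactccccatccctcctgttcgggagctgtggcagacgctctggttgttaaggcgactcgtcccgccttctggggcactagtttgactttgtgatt

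These were compared with the wider set of RefSeq promoter windows, which run from 250 bases before a start to 50 bases after it. The E-box letters CACGTG, read on both strands, occurred in 2 of the 13 windows of the 10 members, those of PRMT3 and WDR77, and in 7.26% of all 35116 windows. The letters CCAAT occurred in 3 member windows, those of PRMT1, PRMT5 and PRMT8, and in 34.6% of all windows. TGATGNAA, the form that ATF4 and C/EBP bind together, was in 0 of the 13 and in 3.62% of all. These are descriptions of letters, and no binding was measured here.

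In Control HEK293T cells, per kb of canonical transcript, PRMT1 was the most abundant family member and PRMT9 the least abundant of those tested. Levels are compared between genes as normalized counts per kb of the canonical transcript. On this scale PRMT1 stood at 8398 ± 1257 in Control (SD, n = 4) and PRMT9 at 191 ± 29.0. Between them, on the same scale, were PRMT5 at 1940 ± 1101, CARM1 at 1570 ± 184, WDR77 at 1500 ± 84.3, PRMT6 at 1236 ± 133, PRMT2 at 1012 ± 61.1, PRMT3 at 874 ± 206 and PRMT7 at 566 ± 119. The library ranges of neighbours in this order overlapped for PRMT5 and CARM1, CARM1 and WDR77, PRMT2 and PRMT3, and PRMT3 and PRMT7.

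In DZNep the order of these means per kb of canonical transcript was unchanged. PRMT1 stood at 6600 ± 1640 (SD, n = 4), PRMT5 at 2654 ± 678, CARM1 at 1781 ± 85.1, WDR77 at 1467 ± 319 and PRMT6 at 1412 ± 64.5. Lower down were PRMT2 at 912 ± 52.8, PRMT3 at 413 ± 31.5, PRMT7 at 412 ± 87.1 and PRMT9 at 116 ± 12.6 per kb. PRMT2 and PRMT3, whose Control ranges overlapped, were separate in DZNep, while WDR77 and PRMT6 came to overlap, and the means of PRMT3 and PRMT7 nearly coincided. The order depends on the length used. Per kb of all annotated exons, WDR77 lay above PRMT5 in Control and PRMT5 above PRMT1 in DZNep. On that length PRMT3 (407) lay above PRMT2 (313) in Control, and PRMT7 lay below PRMT9 in Control. All of these had overlapping ranges. In DZNep PRMT2 lay above PRMT3 and PRMT7 above PRMT9, so on that length the order did change between groups.

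**Figure D1:**
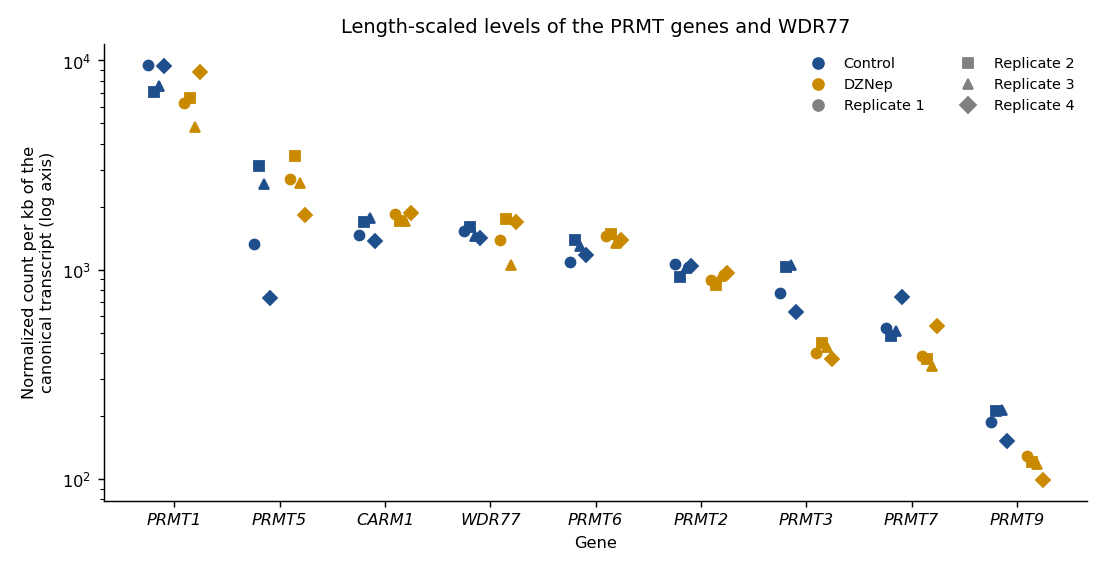
Normalized counts per kb of the canonical transcript (log axis) in each of the 8 libraries for the 9 tested genes, ordered by the Control mean, with color for the group and shape for the replicate number. PRMT1 lies above all others in every library, and the 4 DZNep points of PRMT3 fall from beside PRMT2 to beside PRMT7.

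The type I enzymes made up 6 of the members, and 1 of them, PRMT3, was lower in DZNep. PRMT3 is a cytosolic enzyme that binds and methylates the small ribosomal subunit protein RPS2. The gene (ENSG00000185238) spans chr11:20387558-20509338 on GRCh38. Its normalized counts were 1982, 2635, 2696 and 1608 in Control replicates 1 to 4 and 1026, 1139, 1093 and 955 in DZNep. The highest DZNep library lay well below the lowest Control library, and the DZNep libraries were also closer to each other. Mean levels were 2231 ± 526 and 1053 ± 80.3 (SD, n = 4), and the fitted fold change was a 2.16-fold reduction.

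The log2 fold change of PRMT3 was -1.11 (SE 0.18, 95% interval -1.52 to -0.70; edgeR quasi-likelihood test, adjusted p = 0.000931). It fell in all 4 pairs of libraries that share a number, by 0.95, 1.21, 1.30 and 0.75 on the log2 scale. The 18 alternative fits gave log2 fold changes of -1.24 to -1.01, each with an adjusted p under 0.05 in edgeR, DESeq2 or limma. It was not called when the null was set at a log2 fold change of 1. An exact two-sided permutation test gave p = 0.0286, the smallest that 4 against 4 can reach. Since RNA came from whole cultures, fewer cells holding a transcript and less of it per cell cannot be told apart.

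PRMT1 deposits most of the asymmetric dimethylarginine in mammalian cells. This gene (ENSG00000126457, chr19:49675786-49689029) gave 12670, 9400, 10056 and 12486 normalized counts in Control and 8287, 8755, 6373 and 11643 in DZNep. DZNep replicate 4 lay inside the Control range, whereas the other 3 lay under it. Its means were 11153 ± 1669 and 8764 ± 2178 (SD, n = 4), with a log2 fold change of -0.38 (SE 0.20, interval -0.82 to 0.07; edgeR adjusted p = 0.161). Other settings moved it past the threshold: blocking on replicate number gave an edgeR adjusted p of 0.0155 (log2 fold change -0.40), and leaving out DZNep replicate 4 gave 0.0478 (-0.54). A processed pseudogene, PRMT1P1, held 20 reads over the 8 libraries, and reads that fit both copies were not measured here.

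CARM1 (PRMT4), a coactivator that methylates histone H3 and splicing factors, is at chr19:10871553-10923075 (ENSG00000142453). Its normalized counts were 4830, 5560, 5796 and 4507 in Control and 6053, 5605, 5653 and 6162 in DZNep. PRMT6, a nuclear enzyme that modifies histone H3 (ENSG00000198890, chr1:107056674-107067636), had 2838, 3628, 3410 and 3086 in Control and 3819, 3862, 3504 and 3617 in DZNep. For both genes the groups overlapped, and replicates 1 and 4 were the lowest Control libraries.

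CARM1 had means of 5173 ± 605 and 5868 ± 280 (SD, n = 4) and a log2 fold change of 0.15 (SE 0.14, interval -0.15 to 0.46; edgeR adjusted p = 0.399). PRMT6 had 3241 ± 349 and 3700 ± 169, with 0.16 (SE 0.13, interval -0.13 to 0.46; edgeR adjusted p = 0.353). Neither difference passed the test, with or without the block. Part of CARM1 (891 exon bases) overlaps YIPF2, and reads there may be shared or lost.

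PRMT2, which has weak activity of its own and acts with nuclear receptors, is at chr21:46635595-46665124 (ENSG00000160310). It gave 2505, 2178, 2393 and 2455 normalized counts in Control against 2108, 1996, 2206 and 2283 in DZNep. The groups overlapped narrowly, and DZNep was the lower library in all 4 numbered pairs. The log2 fold change was -0.18 (SE 0.12, interval -0.45 to 0.10; edgeR adjusted p = 0.280, or 0.175 with the replicate block).

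PRMT8, the membrane-anchored enzyme of neurons and the nearest relative of PRMT1, was barely detected. The gene (ENSG00000111218, chr12:3381349-3593973) had 1, 0, 0 and 0 reads in Control and 0, 1, 1 and 2 in DZNep, or 5 reads among 309030856. A count of 0 allows up to 3 reads in a library, so no library stood above that limit and no fold is given.

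**Figure D2:**
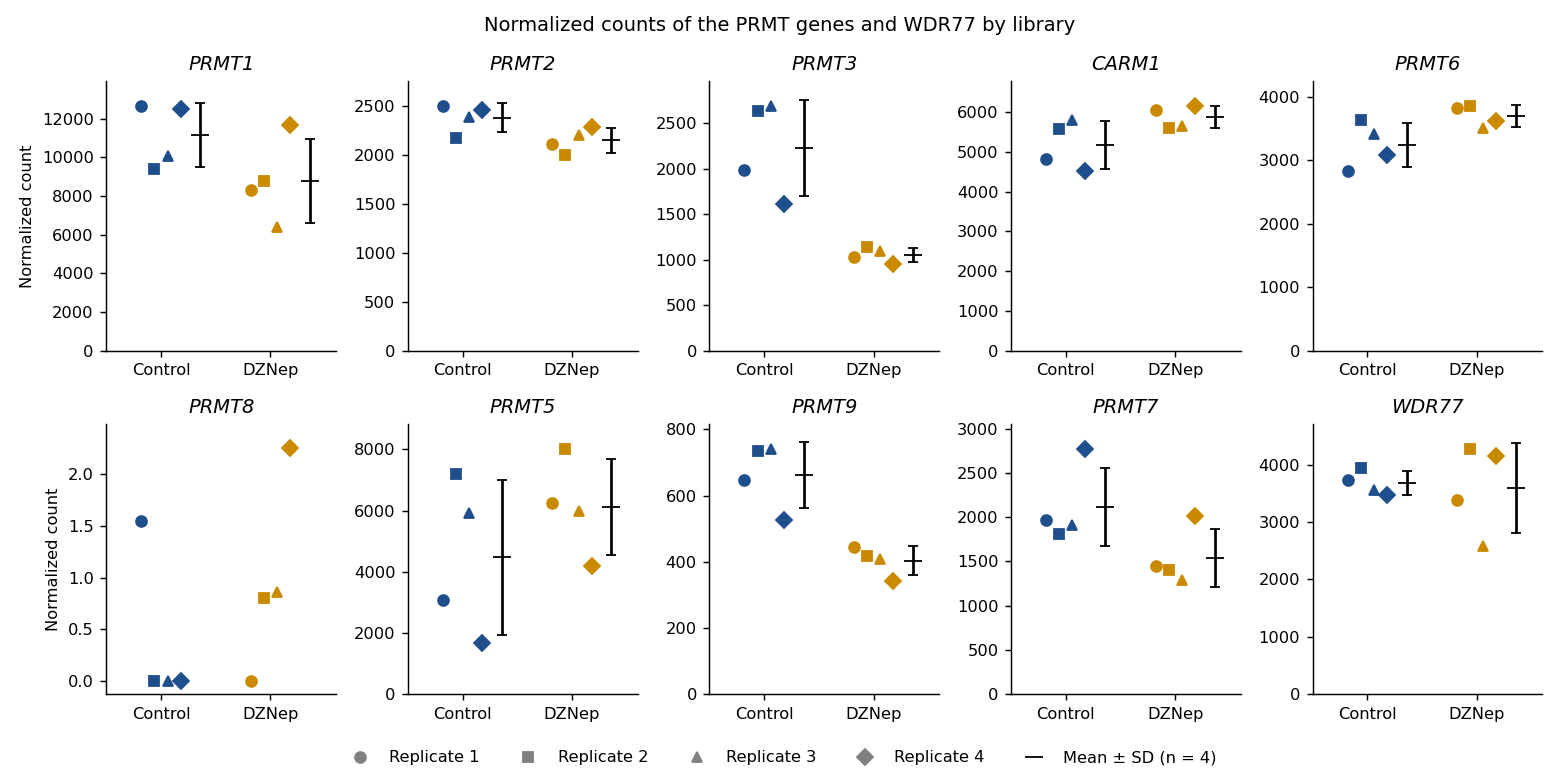
Normalized counts of each of the 10 genes by library, with shapes for replicate numbers and bars for the mean ± SD of 4 libraries (no bar for PRMT8). Groups separate for PRMT3 and PRMT9, and the Control values of PRMT5 are spread from 1681 to 7199.

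Of the type II enzymes, PRMT9 was lower in DZNep and PRMT5 varied more than any other tested member. PRMT9 methylates the splicing factor SF3B2 (gene ENSG00000164169, chr4:147637785-147684163). Its normalized counts were 646, 734, 742 and 526 in Control and 445, 416, 407 and 342 in DZNep. No DZNep library reached the lowest Control library. The means were 662 ± 100.3 and 403 ± 43.6 (SD, n = 4), and the fitted reduction was 1.67-fold.

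PRMT9 had a log2 fold change of -0.74 (SE 0.16, interval -1.10 to -0.38; edgeR adjusted p = 0.00455), short of the log2 fold change of 1 used as the second threshold. All 4 numbered pairs fell, by 0.54, 0.82, 0.86 and 0.62 on the log2 scale. Each of the 18 alternative fits called it (log2 fold changes -0.85 to -0.67, adjusted p from 0.000177 to 0.0274 across edgeR, DESeq2 and limma). The exact permutation test again gave the minimum p of 0.0286.

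TMEM184C, a membrane protein gene on the other strand, overlaps PRMT9 over 34260 bases without sharing an exon base. It rose while PRMT9 fell: normalized counts were 1051, 1742, 1521 and 832 in Control and 2271, 2865, 2455 and 1575 in DZNep. These groups overlapped through DZNep replicate 4. Its log2 fold change was 0.81 (SE 0.26; edgeR adjusted p = 0.0291). That call was lost without Control replicate 1 (0.71, edgeR adjusted p = 0.0842), Control replicate 4 (0.64, 0.0552), DZNep replicate 1 (0.83, 0.0629), DZNep replicate 2 (0.69, 0.0862) or DZNep replicate 3 (0.78, 0.0727).

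PRMT5 is the main source of symmetric dimethylarginine and works in a complex with WDR77, which presents substrates to it. The PRMT5 gene is ENSG00000100462 at chr14:22920525-22929408. Control libraries held 3071, 7199, 5925 and 1681 normalized counts, and DZNep libraries 6236, 8023, 6002 and 4201. The highest Control value was 4.28 times the lowest, against 1.91 times in DZNep, and the groups overlapped broadly. Means were 4469 ± 2536 and 6115 ± 1563 (SD, n = 4), or coefficients of variation of 56.8% and 25.6%.

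The log2 fold change of PRMT5 was 0.43 (SE 0.39, interval -0.45 to 1.30; edgeR adjusted p = 0.418). It went from 0.15 without Control replicate 4 to 0.75 without Control replicate 2. With the replicate block it was 0.60 and was called (edgeR adjusted p = 0.0104). The numbered pairs differed by 1.02, 0.16, 0.02 and 1.32 on the log2 scale, so replicates 1 and 4 carried nearly all of it. Control replicates 1 and 4 were the libraries with the largest mitochondrial shares of their group, 7.76% and 13.7%, against 3.02% and 3.16% in replicates 2 and 3. In DZNep the shares of replicates 1 and 4 were 7.04% and 10.1%, against 4.25% and 4.44%. The part of the mitochondrial share in the PRMT5 values was not tested.

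WDR77, also called MEP50, is ENSG00000116455 at chr1:111439890-111449256. Its normalized counts were 3743, 3948, 3561 and 3483 in Control and 3395, 4282, 2583 and 4152 in DZNep. The DZNep values extended both above and below the Control values. Its log2 fold change was -0.06 (SE 0.17, interval -0.44 to 0.32; edgeR adjusted p = 0.806), and the sign turned with library sizes alone (0.01) and without DZNep replicate 3 (0.08).

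The ratio of PRMT5 to WDR77 per kb, a description of the mRNA of the complex, was 0.875, 1.94, 1.77 and 0.515 in Control replicates 1 to 4. It was 1.96, 2.00, 2.48 and 1.08 in DZNep. The low ratios were those of replicates 1 and 4 in Control and of replicate 4 in DZNep. PRMT5-AS1, an antisense RNA with 924 exon bases in common with PRMT5, had only 10 to 37 reads a library, and PRMT5P1, a pseudogene, had 0.

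PRMT7 is the type III enzyme, which leaves arginine monomethylated. The gene (ENSG00000132600, chr16:68310951-68360852) gave 1969, 1811, 1913 and 2775 normalized counts in Control and 1444, 1404, 1290 and 2017 in DZNep. Replicate 4 was the highest library of each group, and DZNep replicate 4 alone lay within the Control range. Means were 2117 ± 444 and 1539 ± 325 (SD, n = 4). The log2 fold change was -0.49 (SE 0.19, interval -0.92 to -0.06; edgeR adjusted p = 0.0675).

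The 4 numbered pairs of PRMT7 differed by -0.45, -0.37, -0.57 and -0.46 on the log2 scale, the narrowest range of the members that were lower in all 4 pairs after PRMT2. With the replicate block PRMT7 was called (log2 fold change -0.49, edgeR adjusted p = 0.00151). It was also called without Control replicate 2 (-0.56, edgeR adjusted p = 0.0475) and without DZNep replicate 4 (-0.64, 0.0212). SLC7A6OS starts 5 bases from PRMT7 on the opposite strand and was named after its values were seen. It went the other way, from 288 ± 54.5 to 540 ± 49.8 normalized counts (SD, n = 4; log2 fold change 0.88, SE 0.17, edgeR adjusted p = 0.00250).

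**Figure D3:**
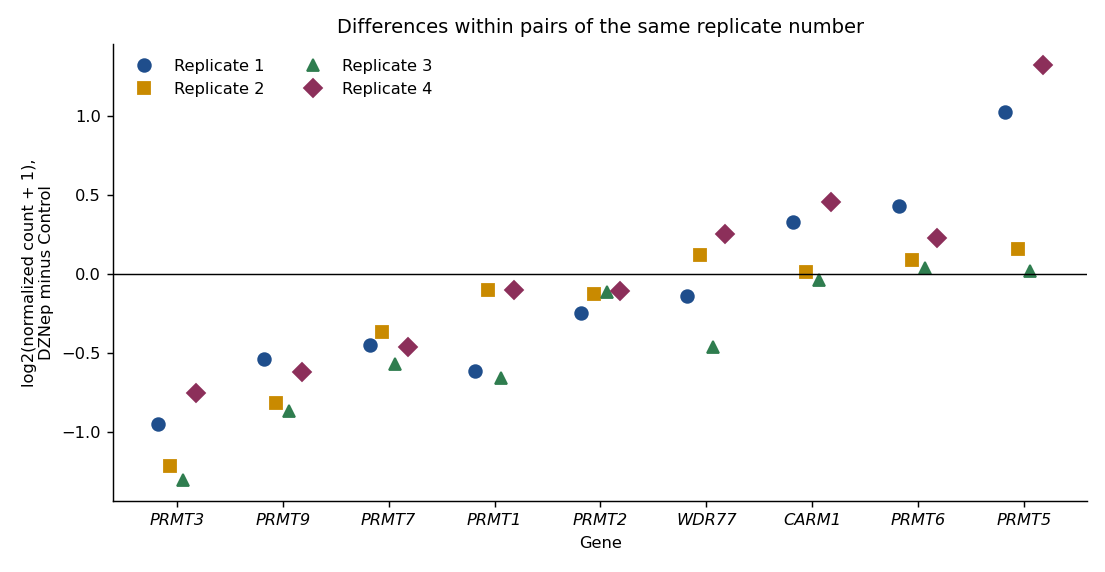
Difference between the DZNep and the Control library of each replicate number, on the log2(normalized count + 1) scale, for the 9 tested genes. All 4 points lie under 0 for PRMT3, PRMT9, PRMT7, PRMT1 and PRMT2, and replicates 1 and 4 stand apart for PRMT5.

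Across the 9 tested members, 1 was lower and 0 were higher at an adjusted p under 0.05 and a log2 fold change beyond 1, where 13.5% of all 19171 tested genes were lower and 10.6% were higher. At the adjusted p alone, edgeR called 2 lower (22.2%) and 0 higher, against 21.8% lower and 19.1% higher among all genes. At an unadjusted p under 0.05 in edgeR, 3 members were lower and 0 were higher, against 26.0% and 22.9% of all genes. The share of lower members was therefore close to that of all genes. The median log2 fold change was -0.18 over the members and -0.03 over all tested genes. Libraries of DZNep lay wholly below Control for 2 members and wholly above for 0, against 19.4% and 19.5% of all genes.

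With the replicate number as a block, PRMT1, PRMT3, PRMT7 and PRMT9 were lower and PRMT5 was higher (4 and 1 of 9). That fit called 30.2% of all genes lower and 28.8% higher. PRMT2, CARM1, PRMT6 and WDR77 were called by neither fit.

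**Figure D4:**
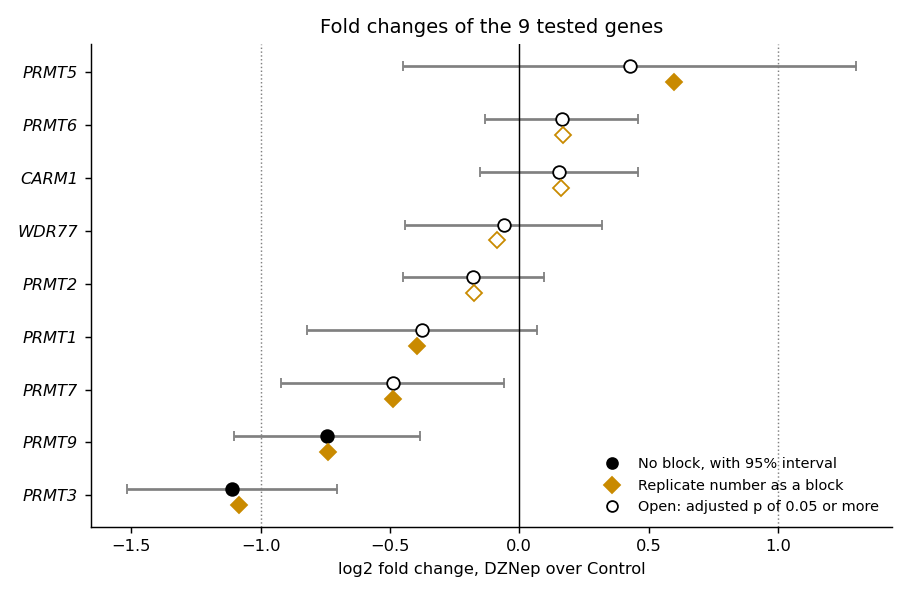
Log2 fold change of DZNep over Control for the 9 tested genes, as circles with 95% intervals (no block) and as diamonds (replicate block). Filled symbols passed an adjusted p of 0.05, which PRMT3 and PRMT9 did in both fits and PRMT1, PRMT7 and PRMT5 did with the block.

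The genes that ran most like 3 of the members over the 8 libraries were found by the root mean square difference of centred log2 CPM, among 13233 genes. FBL, the nucleolar methyltransferase that is itself a PRMT1 substrate, was nearest to PRMT1 at 0.08, where the median gene was at 0.52. TIMM10, which encodes a chaperone of mitochondrial protein import, was also at 0.08. Nearest to CARM1 were NDFIP1, an adaptor of ubiquitin ligases, QDPR, which regenerates tetrahydrobiopterin, and DCTD, a deaminase of nucleotides, all at 0.04 to 0.05 against a median of 0.40. Nearest to PRMT5 were NIPA2 (0.10), IDH3A (0.11) and COPS4 (0.12), against a median of 0.76. Among members, the closest pairs on this measure were CARM1 with PRMT6 (0.09), PRMT1 with PRMT7 (0.16) and PRMT3 with PRMT9 (0.21).

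Beyond the family, 77 genes of arginine methylation were followed in lists, and 73 had enough reads. Of these, edgeR called 14 lower (19.2%) and 5 higher (6.85%) at an adjusted p under 0.05, against 21.8% and 19.1% of all tested genes, and their median log2 fold change was -0.09. A replicate block raised those counts to 24 and 14, where it called 30.2% and 28.8% of all genes. Without Control replicate 1, DZNep replicate 1 or DZNep replicate 2, the lower count was 9, 8 or 9. The higher count was 3 without Control replicate 1 or 4 or DZNep replicate 1, 2 or 3.

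Among adaptors that bring substrates to PRMT5, 1 of 3 fell (33.3%), against 21.8% of all tested genes. CLNS1A (pICln), which delivers Sm proteins, fell from 6134 ± 194 to 2932 ± 372 normalized counts (SD, n = 4; log2 fold change -1.09, SE 0.14, edgeR adjusted p = 0.000215). Control libraries held 6108, 6285, 5870 and 6274, and DZNep libraries 3078, 2576, 2686 and 3386, with no overlap. RIOK1 and COPRS, the other adaptors, did not pass.

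Both genes listed as other reported arginine methyltransferases fell, where 21.8% of all tested genes were lower. This list, like the others, was chosen with earlier results of these data known. METTL23, reported to act on histone H3, went from 988, 1100, 1117 and 809 in Control to 155, 120, 171 and 168 in DZNep. Its log2 fold change of -2.74 (SE 0.18, edgeR adjusted p = 7.47e-06) was the lowest in these lists. NDUFAF7, the mitochondrial enzyme that modifies a complex I subunit, fell from 475 ± 20.3 to 264 ± 32.4 normalized counts (-0.87, SE 0.15, edgeR adjusted p = 0.00103). No library of either gene overlapped between groups, where 19.4% of all tested genes lay wholly below Control in DZNep.

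The Sm and Sm-like proteins, which include symmetric dimethylarginine substrates, had 3 of 11 genes lower (27.3%) and 0 higher. Their median log2 fold change was -0.31. Of all tested genes 21.8% were lower and 19.1% higher, with a median of -0.03. Which of the 11 proteins carry symmetric dimethylarginine was not checked, so the list describes Sm and Sm-like genes and not substrates alone. LSM4 had -0.86 (SE 0.26, edgeR adjusted p = 0.0239), LSM10 of the U7 particle -0.82 (0.26, 0.0266) and SNRPD1 -0.61 (0.22, 0.0463). These calls were lost in 4, 5 and 10 of 18 alternatives. Of the 10 genes of the SMN complex, which loads Sm proteins onto snRNA, 1 was higher (10.0%) and 0 were lower. These shares stand against 19.1% higher and 21.8% lower among all tested genes. DDX20 (GEMIN3) rose by 0.46 (SE 0.15, edgeR adjusted p = 0.0312), and 7 of 18 alternatives lost that call. SMN1 and SMN2 are near-identical, so their counts are uncertain.

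Proteins that bind methylated arginine through Tudor domains had 1 of 6 genes lower (16.7%), against 21.8% of all tested genes. SND1 fell from 15518 ± 1862 to 8658 ± 699 normalized counts (SD, n = 4; log2 fold change -0.87, SE 0.15, edgeR adjusted p = 0.00125). Of 24 genes listed as substrates of type I enzymes, 4 fell (16.7%) and 1 rose (4.17%), with a median of -0.14. Among all tested genes 21.8% were lower and 19.1% higher. Arginine-glycine repeats in the listed proteins were not checked. TAF15 fell by 1.22 on the log2 scale (SE 0.22, edgeR adjusted p = 0.0017), RBMX by 1.07 (0.17, 0.000772) and HNRNPA1 by 0.66 (0.22, 0.0348), while the stress granule protein G3BP1 rose by 0.91 (0.25, 0.0148). The HNRNPA1 call was lost in 6 of 18 alternatives. RBMX and HNRNPA1 have many processed copies in the genome, and the study counted unique reads only. Reads that map to several places may therefore be missing from their counts, and how many was not measured.

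Among 9 substrates and coactivators of CARM1, 2 acetyltransferases rose (22.2%) and 1 gene fell (11.1%), against 19.1% and 21.8% of all tested genes. CREBBP rose from 3526 ± 1012 to 8535 ± 2370 normalized counts (SD, n = 4; log2 fold change 1.25, SE 0.26, edgeR adjusted p = 0.00365). Its libraries did not overlap between the groups, with 2242 to 4362 in Control and 5935 to 11416 in DZNep. EP300 rose by 0.67 (SE 0.24, edgeR adjusted p = 0.0443), a call lost in 7 of 18 alternatives, and PABPC1 fell by 0.90 (0.22, 0.00875).

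Of 5 partners of single enzymes, 2 fell (40.0%), against 21.8% of all tested genes. MTAP, which clears the PRMT5 inhibitor methylthioadenosine, had 2875, 3332, 3213 and 2511 normalized counts in Control and 1435, 1573, 1530 and 1205 in DZNep, without overlap (log2 fold change -1.08, SE 0.15, edgeR adjusted p = 0.000354). BTG2, a binding partner of PRMT1, had a log2 fold change of -0.48 (SE 0.17, edgeR adjusted p = 0.0460), and 13 of 18 alternatives lost that call.

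PADI3, which converts peptidyl arginine to citrulline, rose from 4.47 ± 1.47 to 46.8 ± 4.00 normalized counts (SD, n = 4; log2 fold change 3.33, SE 0.34, edgeR adjusted p = 6.3e-05). Its Control libraries held only 3, 3, 7 and 4 reads, near the limit set by a count of 0, against 45, 60, 56 and 44 in DZNep. PADI3 was 1 of 3 testable genes in a list of 6 that holds the deiminases and JMJD6. It was the only gene called there (33.3%), where 19.1% of all tested genes were higher. Neither of the 2 testable genes for breakdown of free methylarginines passed the test.

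**Figure D5:**
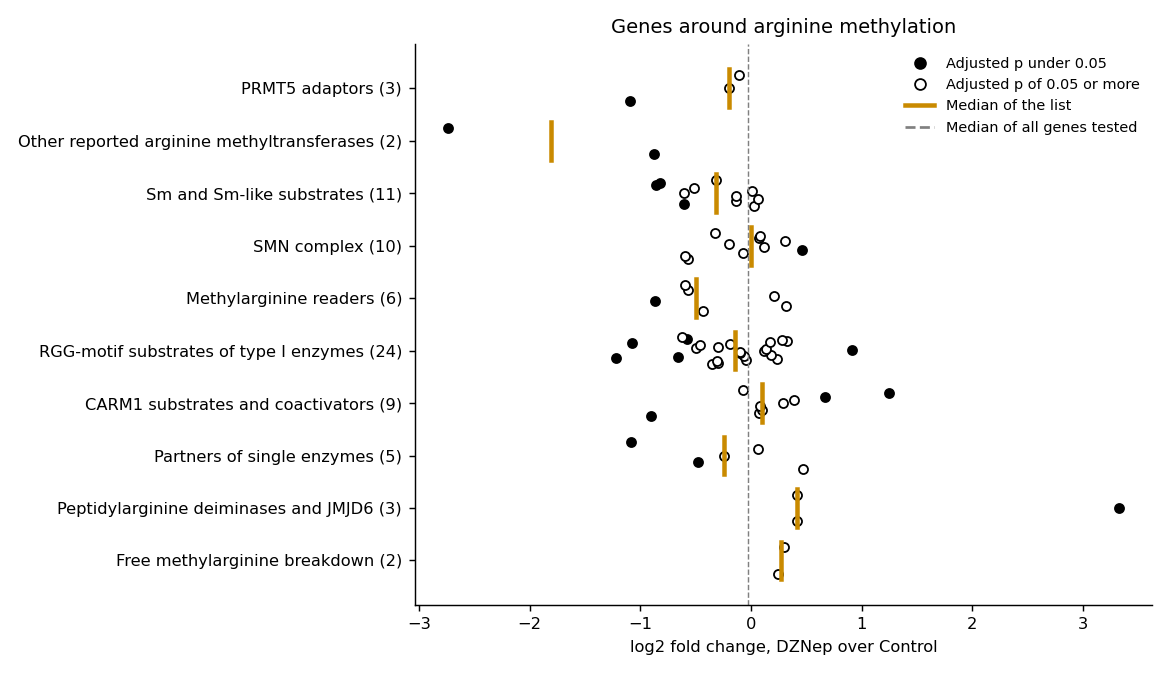
Log2 fold change of DZNep over Control for each tested gene of 10 lists around arginine methylation, with the number tested in brackets, filled for an adjusted p under 0.05. Short bars mark list medians and the dashed line the median of all tested genes (-0.03), with PADI3 farthest to the right and METTL23 farthest to the left.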

How the data were processed

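RNA was extracted and sequenced by a service laboratory for 8 HEK293T libraries. The authors used Trimmomatic 0.36 for trimming, STAR 2.5.2b for alignment to GRCh38 and featureCounts (Subread 1.5.2) for gene counts. The annotation release and strandedness are not given in the sources used here, so overlapping genes are uncertain. The first deposited table holds raw counts for 57500 genes. The second deposited table is a signal, namely counts divided by 1 size factor per library, for 19118 genes, and 100% of its values came back as whole reads within 1e-06. Normalized counts printed here use those factors, also for PRMT8, which that table leaves out.

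GENCODE release 44 gave symbols for 56410 identifiers, coordinates and lengths. It may not be the release used for counting. All 10 members had RefSeq promoter windows.

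The main test was edgeR 4.0.16 (R 4.3.3) quasi-likelihood with TMM factors, on 19171 genes kept by filterByExpr, with Benjamini-Hochberg adjustment over all of them, DZNep against Control, 4 libraries each. Thresholds were an adjusted p of 0.05 and a log2 fold change of 1. DESeq2 1.42.0, limma 3.58.1 on log2(value + 1) and log2(value + 0.1), other scalings and filters, each library left out and a replicate block were the alternatives. A fit limited to the genes of the second table and a fit on its recovered reads were added after seeing the data. Only the main edgeR fit was checked on simulated counts, which carried no replicate effect.

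Control and DZNep carry the same replicate numbers. Libraries of equal number deviated together from their group means, only weakly so for replicate 1. The correlations were 0.14, 0.49, 0.43 and 0.67 for replicates 1 to 4, all over the limit of 0.1. Those libraries were therefore taken as pairs in the fit with the block. Such correlations do not show that the cultures were paired. The main fit has no block. The labels do not say what a number marks.

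All members, up to 3 called genes per list and direction, neighbours of called members and the 3 genes most like PRMT1, CARM1 and PRMT5 were named. Not every gene that this rule picks is reported here. Members and lists were chosen with earlier results of these data known. Intervals for fold changes are 95%, and the limit set by a count of 0 covers counting error only.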

Additional observations from a re-analysis of the deposited data

Results flagged for a closer look

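PRMT7 in Control replicate 4, at 2775 normalized counts, stood apart from the other 3 Control libraries (1811 to 1969). Its gap to the nearest library was 0.836 of the whole range, over Dixon's 95% critical value for 4 samples. This was 1 of 18 groups tested, and chance flags about 1 in 20. The same library had the largest mitochondrial share, 13.7%, whose part was not tested. Without it the log2 fold change of PRMT7 was -0.34 (edgeR adjusted p = 0.154).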

How the results depend on the processing

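Of the 9 tested members, the 2 that were lower stayed past an adjusted p of 0.05 in all 18 alternative fits. The replicate block gave 4 lower and 1 higher member, with PRMT1, PRMT7 and PRMT5 added, and changed no other member's call. Leaving out single libraries gave 2 to 4 lower and 0 higher, with the highest count without DZNep replicate 4. Over all genes those fits called 3225 to 4571 lower and 2952 to 4012 higher, of 19611 to 19922 tested. Without DZNep replicate 4 it was 4189 lower of 19711 tested. With the null at a log2 fold change of 1, edgeR left 0 members in place of 1. Members with all DZNep libraries below Control numbered 2 to 4, and above 0 to 1, when single libraries were left out. The share of all genes is given here only for 4 against 4, at 19.4% below and 19.5% above. Smaller groups separate more easily, so these counts cannot be set against it. WDR77 changed sign with library sizes alone (0.0069), and ranged from -0.15 to 0.0768 when single libraries were left out, with the positive value without DZNep replicate 3.

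In the lists outside the family, the block gave 24 lower and 14 higher genes in place of 14 and 5, DESeq2 gave 9 higher, and leaving out libraries gave 8 to 18 lower and 3 to 5 higher. Over all genes, at both thresholds, 2589 were lower and 2041 higher, against 1066 and 942 with that null. A minimum of 10 reads in every library gave 1141 higher at both thresholds and gave no value for PADI3. At the adjusted p alone the block gave 5528 higher against 3656. No scaling moved the median of all genes by over 0.1 on the log2 scale. Causes were not tested.

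Depth limits PRMT8 alone among the members, at 0 to 2 reads a library. PRMT5 is limited by its spread in Control, and its interval of -0.45 to 1.30 includes a 2.16-fold rise of the size of the PRMT3 fall. Transcript levels do not measure enzyme activity or methylation.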

Other observations

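Around 8 members, 18 genes overlap or start within 1000 bases, and PRMT3 has none. Of these, 16 were counted and 9 were testable, and edgeR called 4 higher (DSTNP1, TMEM184C, SLC7A6OS and SMPD3) and 0 lower, where 19.1% of all tested genes were higher and 21.8% lower. There were also 0 lower at an unadjusted p under 0.05 and 0 lower in every alternative fit. DSTNP1, SLC7A6OS and SMPD3 were named after their values were seen. A total of 7 neighbours share exon bases with a member, among them SMPD3, which shares 1931 with PRMT7, and ATP5PB, which shares 90 with WDR77. Without strand, reads in such shared bases cannot be assigned to either gene.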
